A study of Mus musculus with 4 samples.

Results

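The HSP70 family of heat shock proteins was examined in mouse testis through 10 genes, Hspa1a, Hspa1b, Hspa1l, Hspa2, Hspa4, Hspa4l, Hspa5, Hspa8, Hspa9 and Hspa14, taken by symbol from a table of 22808 gene identifiers. All 10 were found. Testis RNA came from Piwil1+/- and Piwil1-/- mice at postnatal day 23, with 1 directional, ribosomal RNA-depleted library for each genotype. Piwil1 encodes MIWI, which binds piRNAs in spermatocytes and round spermatids. The sources used here give neither the kind of Piwil1 allele, nor the strain of the mutants, nor whether animals were pooled. Both RNA-seq groups carry at least 1 mutant allele, so the heterozygote stands in for the control and no wild-type RNA-seq library was analysed here. A second assay, small RNAs recovered with PIWIL1 from testes of wild-type C57BL/6J mice of 10 weeks, had 2 replicate libraries. The genes were chosen on these same RPKM values (read numbers scaled to gene length and library size), so their values below are a description and carry no test.

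HSP70 proteins are ATP-driven chaperones that bind exposed hydrophobic stretches of other proteins. J-domain proteins bring clients and stimulate ATP hydrolysis, and nucleotide exchange factors, among them the HSP110 branch of the family, release ADP and with it the client. Most tissues use constitutive forms for the cytosol, the endoplasmic reticulum and mitochondria, and heat-inducible forms under stress. Male germ cells also make their own forms. Hspa2 encodes a chaperone needed for male meiosis, Hspa4l an HSP110-type protein abundant in germ cells, and Hspa1l a constitutive form of spermatids. These 3 are called testis forms here, Hspa1a and Hspa1b stress-inducible forms, and the remaining 5 general forms.

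The promoters of 3 members are shown first because they hold, between them, the motif matches described next, for 1 testis form, 1 stress-inducible form and the endoplasmic reticulum form. Hspa1l and Hspa1a are neighbours on chromosome 17 and start in opposite directions 547 bp apart. Each line below is the 250 bases before the start of transcription, 5′ to 3′ on the gene's strand, from RefSeq (GRCm38.p6, the build also named mm10). Capitals mark GAANNTTC or TTCNNGAA (a pair of heat shock factor half-sites), CCAAT and TGACG (the half-site of the cAMP response element), on either strand. The Hspa1l window is chr17:34972453-34972702 on the plus strand, that of Hspa1a chr17:34972157-34972406 on the minus strand and that of Hspa5 chr2:34771840-34772089 on the plus strand.
Hspa1l: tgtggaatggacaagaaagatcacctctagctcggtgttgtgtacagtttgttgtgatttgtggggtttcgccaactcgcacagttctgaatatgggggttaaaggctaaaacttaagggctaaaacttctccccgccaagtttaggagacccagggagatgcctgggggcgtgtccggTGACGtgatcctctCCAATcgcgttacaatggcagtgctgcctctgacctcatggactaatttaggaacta
Hspa1a: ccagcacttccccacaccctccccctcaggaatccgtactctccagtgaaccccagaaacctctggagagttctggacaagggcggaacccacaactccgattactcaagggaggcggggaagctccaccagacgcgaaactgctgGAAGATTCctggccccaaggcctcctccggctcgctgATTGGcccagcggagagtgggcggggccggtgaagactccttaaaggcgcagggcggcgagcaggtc
Hspa5: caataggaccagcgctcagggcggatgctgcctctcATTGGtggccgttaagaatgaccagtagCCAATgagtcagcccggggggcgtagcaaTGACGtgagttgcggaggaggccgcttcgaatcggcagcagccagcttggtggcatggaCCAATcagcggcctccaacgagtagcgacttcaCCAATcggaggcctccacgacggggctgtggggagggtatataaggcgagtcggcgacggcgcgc

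Of the 10 members, 8 had a promoter entry, and motifs were searched in the whole 300-base window, from 250 bases before to 50 after the start. The heat shock element was found in the Hspa1a and Hspa1b windows, in both as GAAGATTC with its first base 104 bases before the start, and in none of the other 6. It occurs in 15.1% of all 32851 promoter windows. Hspa1a and Hspa1b share 247 of their 250 upstream bases. Without gaps, no other pair of members shared more than 84. CCAAT was found in 6 of the 8 windows (37.4% of all windows), GGGCGG in 7 (35.7%) and TGACG in 6 (20.8%). The upstream bases of the members had a median G and C content of 63.4%, beside 52.4% for all windows. The shares were not adjusted for this, and the near-identical Hspa1a and Hspa1b windows count separately for CCAAT and GGGCGG. The TGACG matches include all 3 testis forms, with that of Hspa1l 71 bases before the start, and Hspa14, Hspa4 and Hspa5. The full cAMP response element TGACGTCA (1.79% of all windows) and TATAAA (13.6%) were in none of the 8. The Hspa5 window held the endoplasmic reticulum stress element, which is CCAAT and CCACG with 9 bases between them and overlaps a CCAAT match, 65 bases before the start. That element is in 39 of all windows, or 0.119%. The windows listed for Hspa2 and Hspa4l start inside the RefSeq gene span, downstream of another annotated start, and are not printed. These matches are letters in a window and were not tested for binding.

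Most of the family's RNA came from 2 genes, Hspa4l and Hspa5. Hspa4l was the highest member in both libraries, at 318 RPKM in Piwil1+/- and 297 RPKM in Piwil1-/-, ranks 28 and 31 of all identifiers. Hspa5, the endoplasmic reticulum chaperone BiP, followed at 284 and 286 RPKM, ranks 35 and 36. Of the RPKM summed over the 10 members, 1028 in Piwil1+/- and 1026 in Piwil1-/-, Hspa4l held 30.9% and 28.9% and Hspa5 27.6% and 27.8%. The 3 testis forms together held 40.8% in Piwil1+/- and 38.2% in Piwil1-/-, and the 5 general forms 59.2% and 61.8%.

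**Figure D1:**
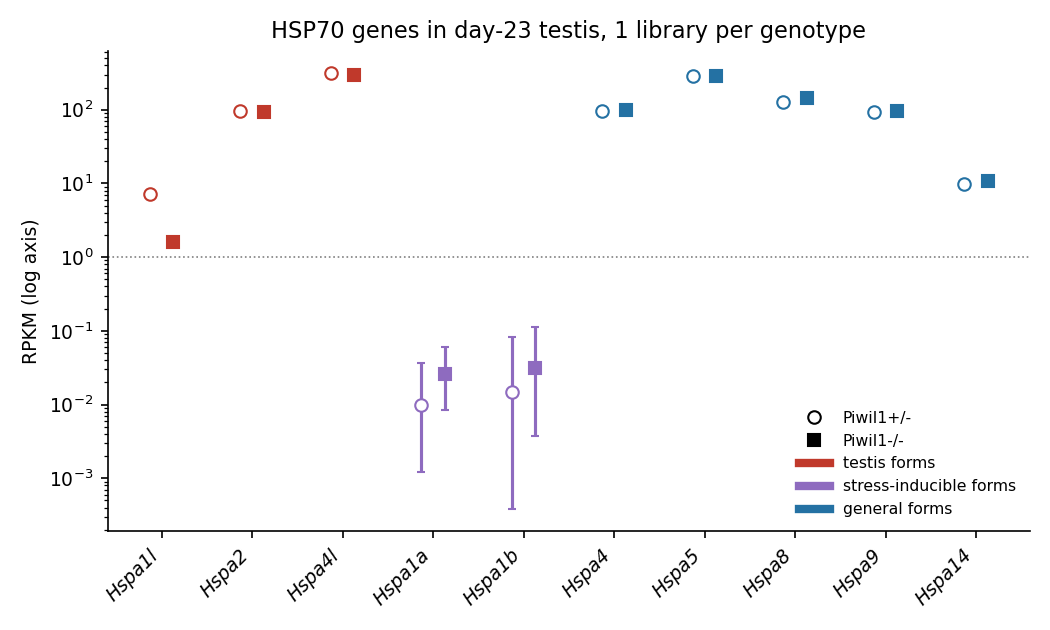
RPKM (log axis) of each HSP70 member in the Piwil1+/- library (open circles) and the Piwil1-/- library (filled squares). Bars are 95% counting intervals from smallest fitting read numbers, mostly smaller than the symbols, and the dotted line is 1 RPKM. Of the 8 members above the line, Hspa1l is the one whose symbols stand apart, at 7.23 and 1.58 RPKM.

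With 1 library for each genotype there is no spread between animals, no replicate check and no p-value. The intervals given below for folds and levels are 95% counting intervals from the smallest whole read numbers that fit the RPKM values. PCR copies make them too narrow, and larger read numbers, which can fit the same values, would make them narrower. A difference beyond such an interval separates the 2 libraries, not the genotypes. A log2 ratio below is log2 (RPKM + 1) in Piwil1-/- less the same in Piwil1+/-; the added 1 makes differences of low genes look smaller than they are. A 2-fold rule on this scale was applied to genes that reached 1 RPKM in at least 1 library, 8 of the 10 members among them. Piwil1 itself had 26.2 RPKM in the heterozygote and was listed at 0 in the mutant. The library totals behind the values were 104014686 for Piwil1+/- and 100254357 for Piwil1-/-.

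Of the 8 members, 1, Hspa1l, passed the 2-fold rule on the lower side, and 0 passed it on the higher side. Over all 9951 genes that entered, 195 were at least 2-fold lower, which is 1.96%, and 23 at least 2-fold higher, which is 0.231%. The genotype contrast was among the values that chose the members, so nothing is read from this count. By a 1.5-fold rule, too, Hspa1l was the single member called, against 518 genes lower (5.21%) and 141 higher (1.42%) in all. The other 7 members lay within 0.2 of 0 on the log2 scale, where 71.0% of all genes lay.

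**Figure D2:**
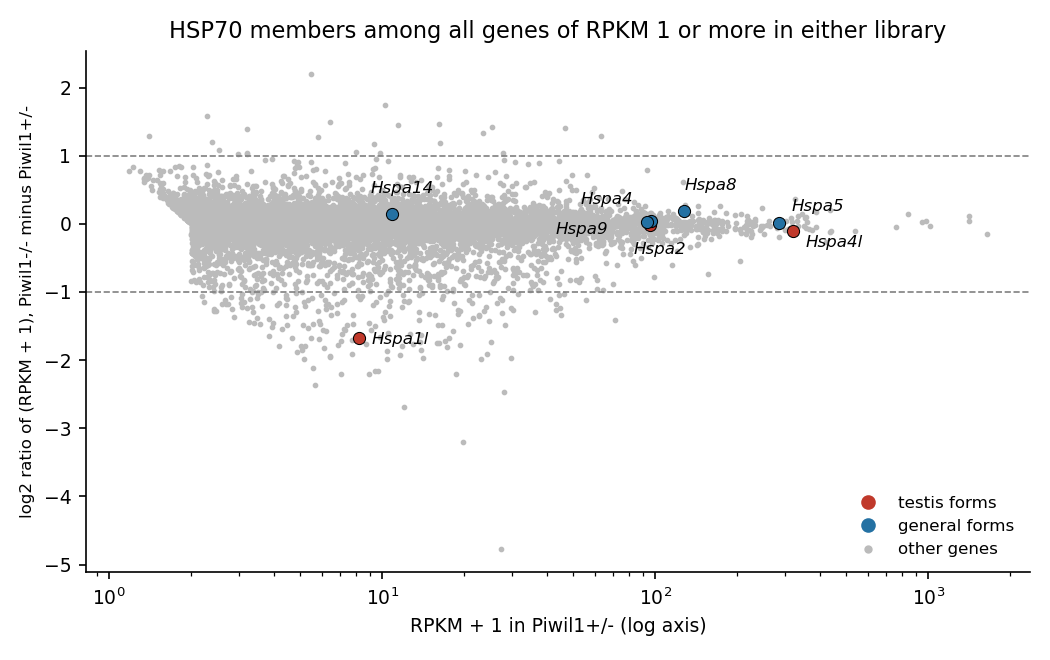
Log2 ratio of (RPKM + 1), Piwil1-/- minus Piwil1+/-, against RPKM + 1 in Piwil1+/- (log axis) for every gene that entered the 2-fold rule (grey), with the 8 HSP70 members that entered in colour and dashed lines at 2-fold. Hspa1l lies at -1.67, below the lower line, and the other members lie between -0.10 and 0.19.

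The testis forms did not move alike. Hspa1l (ENSMUSG00000007033, chromosome 17, 34972703 to 34979228) had 7.23 RPKM in Piwil1+/- (interval 6.86 to 7.61) and 1.58 RPKM in Piwil1-/- (1.41 to 1.77). These levels rest on at least 1448 and 305 reads and do not overlap. The level was 4.58-fold lower in Piwil1-/- (4.04 to 5.19), a log2 ratio of -1.67, which was the 44th lowest of the 9951 genes. At a like level in Piwil1+/-, within 1.25-fold of that of Hspa1l, were 1206 genes, and 10 of them, Hspa1l included, had a ratio as low or lower. Hspa1l was chosen on these same values, so its rank and this count describe it and support nothing further. In whole testis, fewer cells of a type and less RNA in each cell cannot be told apart.

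Hspa2 and Hspa4l stayed close to their Piwil1+/- levels. Hspa2 (ENSMUSG00000059970, chromosome 12, 76403812 to 76406938) had 94.9 RPKM in Piwil1+/- and 93.8 RPKM in Piwil1-/-, a fold of 0.989 (0.954 to 1.02), and this interval holds 1. Hspa4l (ENSMUSG00000025757, chromosome 3, 40744500 to 40796103) had a fold of 0.934 (0.928 to 0.939) from at least 248885 and 223975 reads. That difference is beyond counting error and small, at -0.10 on the log2 scale, and 27.8% of the genes had a lower ratio. Hspa2 was therefore 13.1 times the level of Hspa1l in Piwil1+/- and 59.4 times in Piwil1-/-.

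All 5 general forms had a ratio just above 0, and of all 9951 genes 5092 were above 0. The members were chosen on these values, so nothing is read from the shared direction. Hspa8 (chromosome 9, 40801276 to 40805202), the constitutive cytosolic chaperone HSC70, showed the largest difference among them, from 127 RPKM in Piwil1+/- to 144 RPKM in Piwil1-/-, 1.14-fold higher (1.13 to 1.15). Its log2 ratio of 0.19 stood above that of 85.7% of the genes. The smallest length that fits its values, 4174 bp, is above its RefSeq span of 3927 bp, so its gene model in the table differs from RefSeq. Hspa14, a ribosome-associated member, was at 9.83 and 10.9 RPKM, 1.11-fold higher (1.04 to 1.19). Hspa4, the general HSP110-type exchange factor, was at 95.6 and 98.3 RPKM, a fold of 1.03 (1.01 to 1.05). Hspa9, the mitochondrial HSP70, was at 92.7 and 94.9 RPKM, a fold of 1.02 (1.003 to 1.04). Hspa5 had a fold of 1.01 (0.992 to 1.02), an interval that holds 1. With the libraries rescaled to the median of 12 housekeeping genes, the log2 ratios of Hspa5 and Hspa9 turned to -0.03 and -0.0062. The direction of these 2 genes therefore follows the scaling. With the same rescaling the log2 ratio of Hspa4 fell from 0.04 to 0.00064, so its distance from 0 follows the scaling too.

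Several neighbours in the order of levels could not be separated by intervals from the smallest fitting read numbers. For Hspa2 in Piwil1+/- that number is 6256, and up to 25024 reads would fit its RefSeq span and narrow its interval. In Piwil1+/- the order ran Hspa4l, Hspa5, Hspa8, Hspa4, Hspa2, Hspa9, Hspa14, Hspa1l and, far below, Hspa1b and Hspa1a. The counting interval of Hspa2 (92.5 to 97.2 RPKM) overlapped those of Hspa4 (94.4 to 96.8) and Hspa9 (91.4 to 94.0), and in Piwil1-/- Hspa9 stood above Hspa2 with overlapping intervals. Set against the general form of the same branch, Hspa4l was 3.32 times the RPKM of Hspa4 in Piwil1+/- and 3.02 times in Piwil1-/-. Hspa2 was 0.750 times the RPKM of Hspa8 in Piwil1+/- and 0.651 times in Piwil1-/-. Both ratios of testis to general form were lower in Piwil1-/-. In the pair of Hspa2 and Hspa8, the level of Hspa8 was 1.14-fold higher, and the fold interval of Hspa2 held 1.

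The stress-inducible forms were at the limit of detection. Hspa1a (chromosome 17, 34969359 to 34972156) had 0.00998 RPKM in Piwil1+/- and 0.0259 RPKM in Piwil1-/-, which correspond to 2 and 5 reads. Hspa1b (chromosome 17, 34956429 to 34959238) had 0.0150 and 0.0310 RPKM, which correspond to 1 to 4 and 2 to 8 reads within its RefSeq span. The ratio of Hspa1a was 2.59 with a counting interval of 0.425 to 27.2, and that of Hspa1b 2.08 with an interval of 0.108 to 122, so no difference was detectable at this depth. Both genes are near-identical copies, and the handling of reads that match both is not given in the sources used here. Their low values are therefore uncertain as levels. Hspa1l, whose span lies 546 bp from that of Hspa1a, had at least 1448 and 305 reads.

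The lower level of Hspa1l was not shared by its measured neighbours to the same degree. Within 100000 bp on either side RefSeq lists 26 other genes, of which 18 are in the table and 6 entered the 2-fold rule. None of the 6 was past it, beside 1.96% of all genes, so nothing is read from this count. Of the 6, 4 had a ratio below 0, beside 48.8% of all genes, and nothing is read from this count either. A difference shared by the region was not tested. Lsm2, a subunit of an RNA-binding ring of splicing and decay, starts 2625 bp beyond the end of Hspa1l. It was at 5.54 RPKM in Piwil1+/- and 4.13 RPKM in Piwil1-/- (log2 ratio -0.35), a fold of 0.745 (0.590 to 0.939). Vars, the valyl-tRNA synthetase, was at 12.9 and 8.84 RPKM (log2 ratio -0.50), a fold of 0.684 (0.665 to 0.703). On the other side Ehmt2, a histone methyltransferase, had a log2 ratio of -0.01 and C2, a complement component, one of 0.18. Farther out on the side of Lsm2 and Vars, Msh5, a meiotic recombination protein, was at 0.11 and Clic1, a chloride channel protein, at -0.12.

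**Figure D3:**
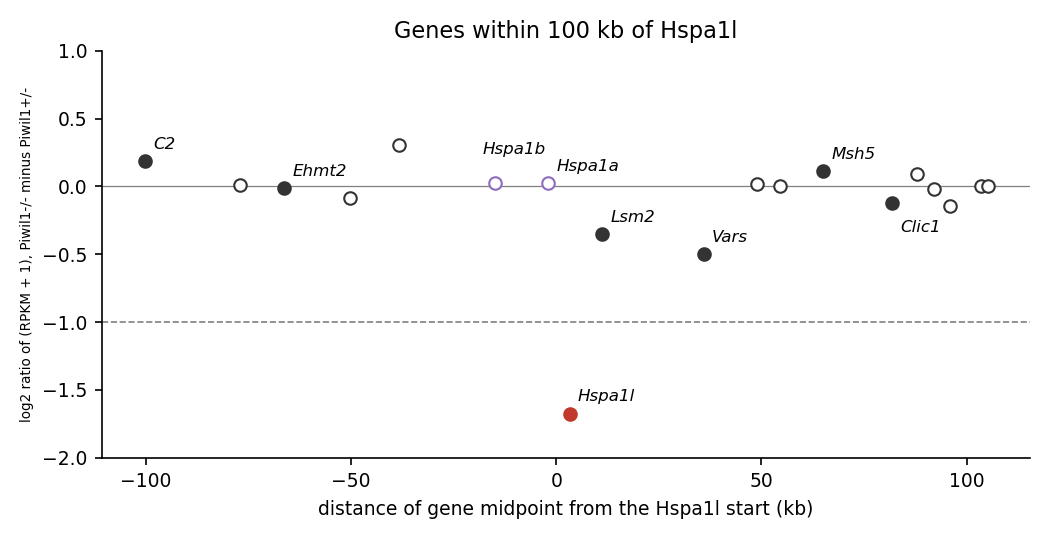
Log2 ratio of (RPKM + 1), Piwil1-/- minus Piwil1+/-, of genes in the table within 100 kb of Hspa1l, by the distance of each gene's midpoint from the Hspa1l start in kb. Filled points reached an RPKM of 1 in either library and open points did not; the dashed line is 2-fold lower. Hspa1l at -1.67 is the single point below the line, and Vars at -0.50 is the next lowest.

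Of the 10 members, 4 overlap another RefSeq gene. No other RefSeq gene overlaps Hspa1l, Hspa1a, Hspa1b, Hspa4, Hspa4l or Hspa14. Hspa5 overlaps Rabepk, which was at 53.2 RPKM in Piwil1+/- and 47.3 RPKM in Piwil1-/-. The testis form Hspa2 overlaps 4930426I24Rik, Hspa8 overlaps Snord14c, Snord14d and Snord14e, and Hspa9 overlaps Gm22200 and Gm26109, and the table has no row matched to these symbols. The sources used here do not say if the counting used strand, and without it the reads of overlapping genes cannot be told apart. The identifier Gm45902, at 0.398 and 0.202 RPKM, is a separate row from Hspa14 and was not added to it.

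Among genes of the other chaperone and partner lists, 5 were at least 2-fold lower in Piwil1-/-. They were the J-domain genes Dnajb7, Dnajb8 and Dnajc5b, the heat shock factor Hsfy2 and the HSPA2 partner Tnp2, which also stands in the elongating spermatid list. Over 8 chaperone lists and a list of HSPA2 partners, 94 of 107 genes entered. The 5 lower genes are 5.32% of them, beside 1.96% of all genes, and 0 passed the rule on the higher side. The lists were chosen with earlier results of these data known, so nothing is read from this share or from those of single lists below. The 94 log2 ratios had a median of -0.03, beside 0.0055 for all genes. Among relatives of the members, Hsph1, a heat-inducible HSP110, was at 13.6 RPKM in Piwil1+/- and 9.91 RPKM in Piwil1-/- (log2 ratio -0.42). Hspa13, a microsomal HSP70-like protein, went the other way, at 11.9 and 15.6 RPKM (0.37). Hyou1, the endoplasmic reticulum HSP110, was at 49.0 and 48.6 RPKM. Hspa12a was at 1.17 and 0.969 RPKM, and Hspa12b was under 1 RPKM in both.

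J-domain proteins of class B included 2 genes at least 2-fold lower of 12 measured (16.7%, beside 1.96% of all genes). Their median was -0.20, and 11 of the 12 (91.7%) were below 0, beside 48.8% of all genes. Dnajb7 was at 18.2 RPKM in Piwil1+/- and 4.60 RPKM in Piwil1-/-, 3.96-fold lower (3.57 to 4.41). Dnajb8, a chaperone that suppresses protein aggregation, was at 12.0 and 2.81 RPKM, 4.26-fold lower (3.53 to 5.17). Both differences were of the size seen for Hspa1l. Their general relative Dnajb1, the main cytosolic partner of HSP70, was at 99.5 and 93.9 RPKM, and Dnajb11, of the endoplasmic reticulum, had the highest ratio of the class at 0.20. In class C, 1 of 25 was at least 2-fold lower, Dnajc5b, a cysteine string protein of testis, at 17.4 and 7.26 RPKM. Dnajc3, the endoplasmic reticulum partner of BiP also called P58IPK, had the highest ratio, at 26.8 and 52.2 RPKM (log2 ratio 0.93), while the interval of BiP itself held 1. In class A none of 4 was past 2-fold; Dnaja4 was lowest (-0.63) and Dnaja2 highest (0.13).

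**Figure D4:**
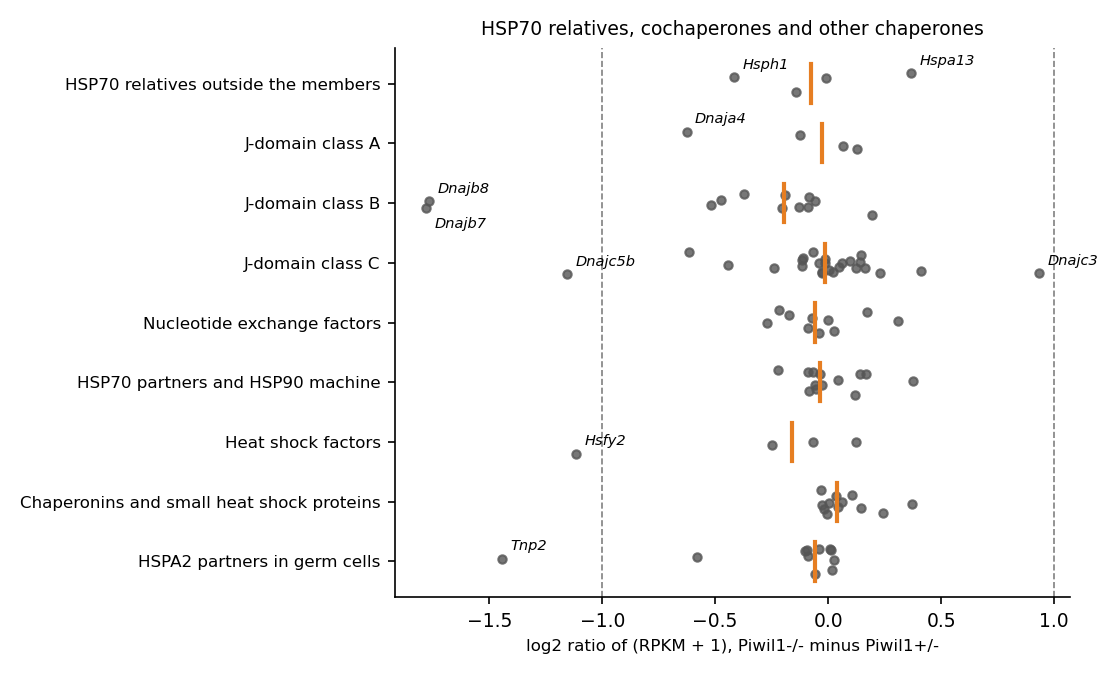
Log2 ratios of (RPKM + 1), Piwil1-/- minus Piwil1+/-, of the measured genes of each chaperone or partner list (points), with each list's median (orange bar) and dashed lines at 2-fold. Dnajb7, Dnajb8, Dnajc5b, Hsfy2 and Tnp2 lie below the lower line and no gene lies above the upper one.

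Nucleotide exchange factors and HSP90 partners were all within 2-fold. Of 10 exchange factors the lowest was Bag2 (-0.27) and the highest Hspbp1 (0.31), with a median of -0.06. Of 13 genes linking HSP70 to HSP90, the lowest was Ptges3, the HSP90 cochaperone p23 (-0.22), and the highest Chordc1 (0.38), with a median of -0.04. Among heat shock factors, Hsfy2 was 2.27-fold lower (2.13 to 2.42), at 26.5 and 11.7 RPKM. Hsf1, the main activator of stress-inducible HSP70 genes, was at 1.81 and 2.06 RPKM (0.12). Chaperonins and small heat shock proteins had a median of 0.04 over 12 genes, from -0.03 for Cct7 to 0.37 for Hspe1. Known partners of HSPA2 in germ cells had a median of -0.06 over 11 genes. Shcbp1l, a spindle protein that stabilises HSPA2, was at 124 and 120.3 RPKM and Cdk1, the kinase HSPA2 assists in meiosis, at 22.4 and 22.5 RPKM. Tnp2, a transition protein whose transport HSPA2 assists, was at 2.25 and 0.197 RPKM (-1.44), 11.4-fold lower from at least 83 and 7 reads (5.31 to 29.3).

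Germ cell stage markers moved beside the testis forms as follows, and their part in the result was not tested. The 14 measured meiotic prophase genes centred on a log2 ratio of 0.10 (median), with summed levels of 1142 RPKM in Piwil1+/- and 1227 RPKM in Piwil1-/- and none past 2-fold. The median of 12 late pachytene and division genes was -0.11, with 1 of them, Piwil1, past 2-fold; Ybx2 was highest (0.43), and the most abundant, Ldhc and Adam3, were at 1638 and 1479 RPKM and at 435 and 401 RPKM. Round spermatid genes had a median of -0.55, with 3 of 12 at least 2-fold lower, Spert, Fhl5 and Tssk2, and summed levels of 438 and 349 RPKM. Spata16, their most abundant and highest-ratio member (0.05), was at 107 and 110.3 RPKM and Crem at 89.0 and 73.0 RPKM. Elongating spermatid genes had a median of -1.28, with summed levels of 591 and 408 RPKM. At least 2-fold lower were 8 of 11, Cabs1, Spem1, Fscn3, Tnp2, Akap4, Odf1, Prm2 and Gapdhs. This is 72.7%, beside 25% of the round spermatid list, 8.33% of the late pachytene list and 1.96% of all genes. The lists were chosen with earlier results of these data known, so nothing is read from these shares. Prm1, Prm2 and Tnp1, which define late spermatids, had 0.062, 1.42 and 0.458 RPKM in Piwil1+/-, and all 3 were listed at 0 in Piwil1-/-. The ratio of Hspa1l lay in the range of the elongating list (-2.47 to -0.27), and below the lowest round spermatid gene (-1.50). It also lay in the ranges of the late pachytene list, through Piwil1, and of the peritubular list (-2.20 to 0.14), through Actg2. This ratio therefore does not place Hspa1l in a stage or cell type. The elongating list is itself mixed. In Piwil1+/-, Akap4, Odf1 and Odf2 were at 70.5, 22.5 and 420 RPKM, far above Prm1, Prm2 and Tnp1. Which cells carried the Hspa1l RNA was not measured. The ratios of Hspa2 and Hspa4l lay in the range of the prophase list (-0.23 to 0.27). They also lay in those of the late pachytene list (-0.31 to 0.43 without Piwil1), the round spermatid list (-1.50 to 0.05) and the Leydig list (-0.31 to 0.20), among others. Their values therefore do not tell these stages and cells apart.

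**Figure D5:**
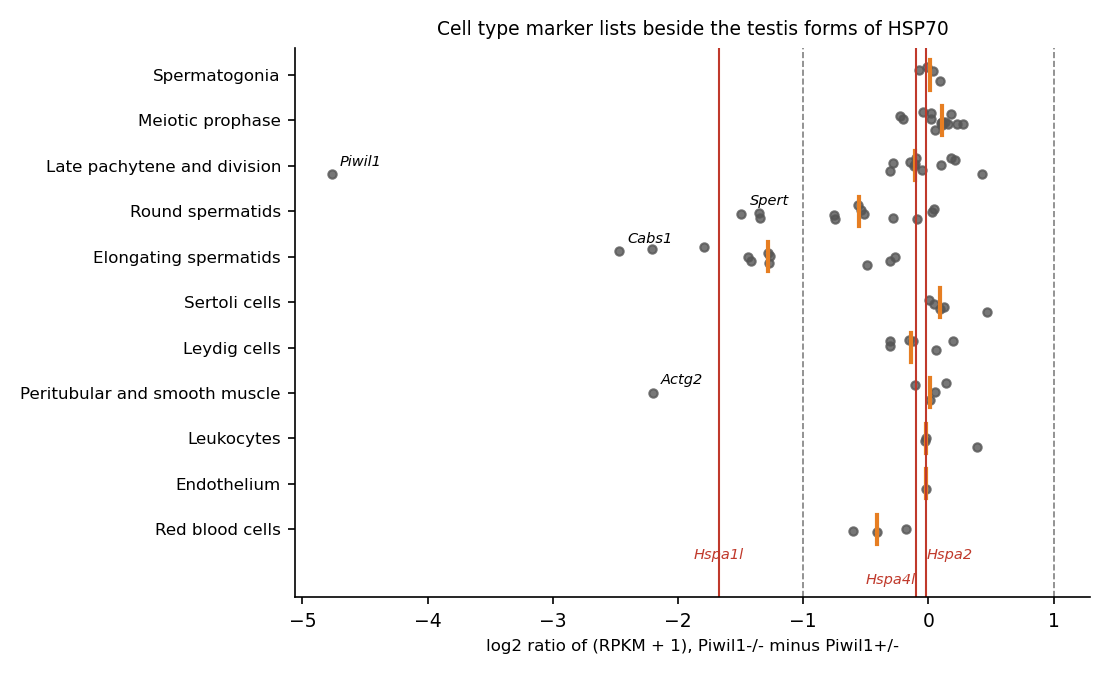
Log2 ratios of (RPKM + 1), Piwil1-/- minus Piwil1+/-, of measured marker genes by cell type (points), with each list's median (orange bar), the 3 testis forms of HSP70 (red lines) and dashed lines at 2-fold. The Hspa1l line at -1.67 falls in the range of elongating spermatid genes. It also falls in those of the late pachytene list, through Piwil1, and the peritubular list, through Actg2. The Hspa2 and Hspa4l lines fall in the ranges of prophase, late pachytene, round spermatid and Leydig genes, among others.

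Medians of the lists for other testis cells were of mixed sign. They were 0.01 for spermatogonia (4 genes), 0.10 for Sertoli cells (5), -0.14 for Leydig cells (6), 0.01 for peritubular cells (5), -0.02 for leukocytes (3) and -0.41 for red blood cells (3). Endothelial genes were represented by Cdh5 alone (-0.02). These short lists follow the filter: with no filter on low values the medians were -0.03 for Leydig cells, 0.09 for leukocytes, -0.13 for endothelium and -0.18 for red blood cells. Actg2 was the single gene past 2-fold among these lists, at -2.20, beside 1.96% of all genes lower and 0.231% higher. Some defining genes of testis cells were well above 1 RPKM, among them Sycp3 (163 and 185 RPKM), Clu (133 RPKM in both libraries) and Cyp17a1 (63.0 and 50.8 RPKM). Others were near 0, among them Sox9 (0.032 and 0.033 RPKM) and Amh (0.040 and 0.090 RPKM) of Sertoli cells and Insl3 (0 and 0.054 RPKM) of Leydig cells. Of the Sertoli list 5 of 10 genes entered, and of the Leydig list 6 of 8.

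The genes whose 2 RPKM values lay nearest to those of each testis form were found by distance in log2 (RPKM + 1) over the 2 libraries. For Hspa1l they were Prss55 (distance 0.086, at 7.73 and 1.58 RPKM), Hemgn (0.14) and Spanxn4 (0.15). For Hspa2 they were Odc1 (0.015), Cops3 (0.019) and Dap3 (0.020), and for Hspa4l Fhl4 (0.033), Asrgl1 (0.060) and Ldha (0.10). With 2 points for each gene this is a likeness of level and ratio only.

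PIWIL1-bound small RNAs gave a readout that the choice of genes did not use, within the limits of the promoter windows. No small RNA of 24 nt or more matched any of the 8 member windows exactly on either strand, in either replicate. Among all 32851 windows, 4.91% held at least 1 matching read, so nothing is read from an absence in 8 windows. The libraries held 4722785 and 6322998 reads with an insert, so a count of 0 allows up to 0.635 and 0.474 RPM (reads scaled to library size) for each window and strand, from 3 counts and for counting error only. Small RNAs from the exons of the members were not analysed here.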

How the data were processed

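Testis RNA was measured in 1 library of Piwil1+/- and 1 of Piwil1-/- mice, and PIWIL1-bound small RNA in 2 libraries. The authors deposited RPKM for 22808 Ensembl gene identifiers, per the file headers, and the small RNAs as read counts for each distinct 50-nt sequence, adapter included. Bowtie, STAR and mm10 are named in the submitters' processing notes; counter, annotation and strand setting were not given in the sources used here. Symbols matched 22444 identifiers.

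Log2 ratios use a pseudocount of 1 RPKM and genes of RPKM 1 or more in either library. RPKM is a whole read number divided by gene length and library total. The totals came from the ratio of low genes and from 109 matches to RefSeq spans under 1500 bp. The smallest fitting read numbers were found for 16386 (99.0%) of 16558 genes with values above 0 in each library. Of the smallest gene lengths, 66.9% were multiples of 3. Fold intervals are exact binomial (Clopper-Pearson) and level intervals exact Poisson. In simulated data for this comparison (2978 genes), read ratios were recovered in 100%, 95.2% of intervals held the true fold, 200 of 200 genes changed 4-fold were called and 0 of 1549 unchanged genes; no difference between animals was simulated. Small RNA inserts end at the first 10 adapter bases. The members and lists were chosen with earlier results of these data known. Named genes are the members, their relatives and neighbours, and in each list those past 2-fold and the extremes; in long lists some were added after their values were seen. Python 3.11.15, pandas 2.3.3 and scipy 1.17.1 were used.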

Additional observations from a re-analysis of the deposited data

How the results depend on the processing

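Across pseudocounts of 0.1 RPKM or none, 2 rescalings, no filter and a filter of 5 RPKM, Hspa1l stayed the single member past 2-fold and past 1.5-fold, with a log2 ratio from -2.19 to -1.67. The other 7 members stayed between -0.14 and 0.19. The rescalings moved all genes by 0.0059 (trimmed mean) and 0.04 (housekeeping). Medians of short marker lists (Leydig cells, leukocytes, endothelium, red blood cells) moved with the filter, and counts over all genes did change. With a pseudocount of 0.1 RPKM, the 2-fold rule gave 332 genes lower and 68 higher, and the 1.5-fold rule 282 higher. Without a pseudocount these were 348, 74 and 316. With a filter of 5 RPKM, where fewer genes entered, the 2-fold rule gave 126 lower and the 1.5-fold rule 328 lower and 93 higher. These 9 counts moved by over 1.5 times and 51 others did not. No paired analysis was possible because each genotype has 1 library. The planned match of small RNAs to exons or proteins, with its alternatives, was not run; the promoter match was added after seeing the data. The low read numbers of Hspa1a and Hspa1b limit their ratios, how reads matching both copies were handled was not tested, and 1 library for each genotype limits every difference.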

Other observations

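General stress responses, lists not described above, showed no gene past 2-fold, beside 1.96% of all genes lower and 0.231% higher. In lists this short nothing is read from that absence. The 9 measured heat shock response genes ran, around a median log2 ratio of 0.05, from -0.42 for Hsph1 to 0.38 for Chordc1; Hsp90aa1, the inducible HSP90 that is also abundant in germ cells, was at 1404 RPKM in Piwil1+/- and 1449 RPKM in Piwil1-/-. The median turned to -0.01 with a filter of 5 RPKM. For 12 genes of the unfolded protein response the median was -0.08, with Sdf2l1 highest (0.50) and Ddit3 lowest (-0.21). None of 7 immediate early genes reached 1 RPKM, with summed levels of 0.186 and 0.349 RPKM.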
